A study of Mus musculus with 4 samples.

Results

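Immature B cells of mouse bone marrow were described in 4 libraries, 2 from TLR9-/- mice and 2 from wildtype (WT) mice, all of the C57BL/6 strain and untreated as far as the labels state. They were chosen by their own transcripts. A cell was taken when it held at least 2 UMIs of Cd79a and Cd79b together and at least 1 UMI of Ms4a1, with 0 of Ighd and 0 of Siglech, at most 1 of Vpreb1 and Igll1 together, and at most 1 of the cycling genes Mki67, Top2a, Pclaf and Birc5 together. A UMI (unique molecular identifier) marks 1 captured RNA molecule. By this rule 2235 of 39167 cells were immature B cells, of which the TLR9-/- libraries numbered 1 and 2 gave 494 and 380 and the WT libraries so numbered 691 and 670. Mononuclear cells of the bone marrow had been sequenced as 5′ tags of their RNA, each mouse giving 1 library. TLR9-/- mice carry a disrupted allele of Tlr9 in all cells, and age and sex of these mice were not given in the labels. The 2 genotypes were compared in 2 experiments with 1 mouse of each genotype, but whether the library numbers mark the experiments is not stated.

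B cells arise in the marrow through stages marked by their antigen receptor. Pro-B cells rearrange the heavy chain gene, large pre-B cells display it with a surrogate light chain made of Vpreb1 and Igll1 and divide, and small resting pre-B cells rearrange the light chain genes with the RAG recombinase. A cell that displays a complete IgM is an immature B cell, which is tested for reaction to self, may replace its light chain, and leaves the marrow before IgD appears beside IgM on the mature B cell. TLR9, the endosomal receptor for unmethylated CpG DNA, is present in B cells. Immature B cells were therefore set beside 2133 mature B cells, which met the same rule except that Ighd was at least 1, and 4233 small resting pre-B cells, which met it except that both Ms4a1 and Ighd were 0.

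The immature B cells of the TLR9-/- libraries held 717133 and 795161 UMIs, and those of the WT libraries 929367 and 1058338. The median per cell was 1096.5 and 1667.5 UMIs against 1047 and 1359.5, so that the TLR9-/- library numbered 2 was the deepest per cell. Of the cells, 774 held only 1 UMI of Ms4a1 and 1461 held 2 or more. Just outside the rule stood 1026 cells with 1 UMI of Ighd, and 1107 further cells held 2 or more. At this depth a cell without a UMI of Ighd may still have had the transcript, so the boundary towards mature B cells is one of detection. Between 112 and 185 cell barcodes were shared by any pair of libraries.

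The markers of the label were present. After thinning each cell to 500 UMIs, Ly6d, a surface protein of early B lineage cells, was detected in 87.9% and 81.1% of TLR9-/- immature B cells and in 87.6% and 89.1% of WT ones. In cells outside the B lineage with more than 2% of their UMIs on neutrophil genes, which should lack it, Ly6d was detected in 1.39% to 5.28%. Ighm, the heavy chain of IgM, was detected in 77.3% to 90.3% of the immature B cells and in 3.86% to 4.74% of those other cells. Cd72, an inhibitory coreceptor of the B-cell receptor, was detected in 30.6% to 34.0% against 0.0867% to 0.519%. Without thinning, Ly6d was found in 95.5% to 97.9%, Ighm in 94.7% to 98.5% and Cd72 in 52.2% to 58.2% of the immature B cells, and in 3.77% to 9.79%, 19.2% to 27.4% and 2.12% to 3.26% of the other cells, whose median depth was 2383.5 to 3702 UMIs. Ms4a1 and Cd79a were fixed by the rule.

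Transcripts of other lineages were also found. The 10 neutrophil markers, led by S100a9, summed to 19901 and 33293 CPM in TLR9-/- cells and to 6971 and 18471 CPM in WT cells (CPM, UMIs per 1000000 UMIs of the class in that library). The 10 erythroid markers, led by Hbb-bs, summed to 959 and 1258 against 10548 and 2568 CPM. All members of both lists were detected. The genotypes did not overlap in either sum. By single cells, however, neutrophil UMIs were found in 56.3% and 56.3% of TLR9-/- immature B cells and in 27.6% and 92.8% of WT ones. The WT libraries thus lay on both sides of the TLR9-/- libraries. With cells left out that held over 2% of their UMIs on the neutrophil, monocyte, erythroid, T and NK, and plasma cell lists, the 10 genes called between genotypes below became 18, with all 10 among them. Plasma cell RNA came from few cells, since 7 immature B cells held 50 or more UMIs of Jchain, the chain that joins IgA and IgM into polymers.

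Immature B cells made up 4.58% and 4.26% of all TLR9-/- cells, with 95% exact binomial intervals of 4.20% to 4.99% and 3.85% to 4.70%. In the WT libraries they made up 6.54% (6.07% to 7.02%) and 7.53% (6.99% to 8.10%). The genotypes did not overlap, at 4.42% ± 0.227 in TLR9-/- and 7.03% ± 0.705 in WT marrow (SD, n = 2 libraries each). The log2 fold change was −0.67 (SE 0.18), but it did not pass the threshold after adjustment over 7 classes (adjusted p = 0.116, edgeR's quasi-likelihood test with Benjamini-Hochberg adjustment). Shares were also taken among B lineage cells. There the immature B cells made up 13.5% and 14.0% of the TLR9-/- cells and 12.9% and 14.5% of the WT cells, so that the genotypes overlapped (log2 fold change 0.01, SE 0.28, adjusted p = 0.986 over 6 classes, edgeR). For 2 libraries per genotype the smallest p of an exact permutation test is 0.33. Intervals cover counting error only, and these shares are of captured cells, not numbers of cells per bone.

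**Figure D1:**
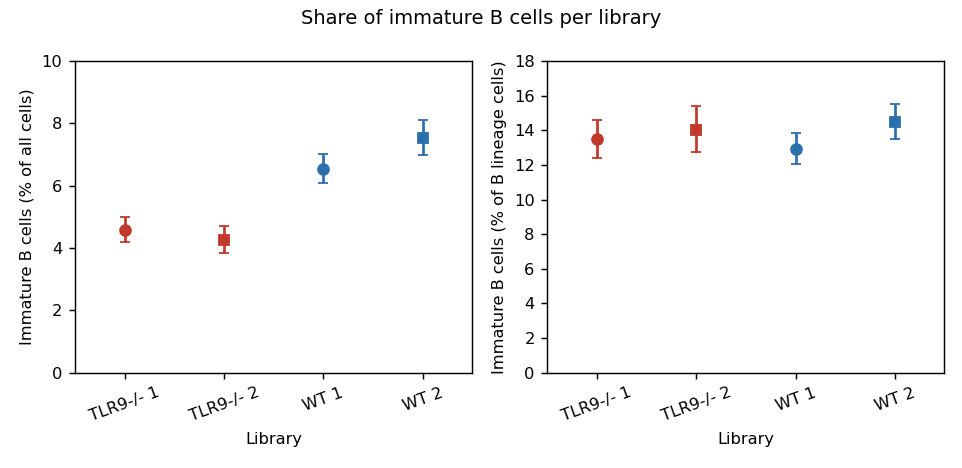
Share of immature B cells among all cells (left, %) and among B lineage cells (right, %) in each library, with bars for the 95% exact binomial interval, which covers counting error only. On the left the TLR9-/- libraries lie at 4.58% and 4.26% and the WT libraries at 6.54% and 7.53%, and on the right the 4 libraries lie between 12.9% and 14.5%.

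To place the immature B cells between their neighbours, UMIs were summed per library and class, and classes were compared within libraries. Against small resting pre-B cells, 652 of 7992 genes were higher (8.16%) and 608 were lower (7.61%) at an adjusted p under 0.05, 15.8% in either direction, and 29.6% had an unadjusted p under 0.05. Against mature B cells, 184 of 7029 genes were higher (2.62%) and 244 were lower (3.47%), 6.09% in all, and 18.2% had an unadjusted p under 0.05. Genes of the rule itself were left out of these counts, which became 772 against pre-B and 214 against mature B cells without WT 2, and 276 against mature B cells without WT 1. By DESeq2 they were 796 against pre-B and 129 against mature B cells (61 higher, 68 lower), and with Ms4a1 at least 2 the count against mature B cells was 194. The classes differ by detection of Ms4a1 or Ighd in single cells, so that cells near a boundary may be on either side of it. Levels below are CPM scaled together over the 3 classes, in the order TLR9-/- 1, TLR9-/- 2, WT 1 and WT 2, and adjusted p values are from edgeR with n = 4 libraries per class.

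**Figure D2:**
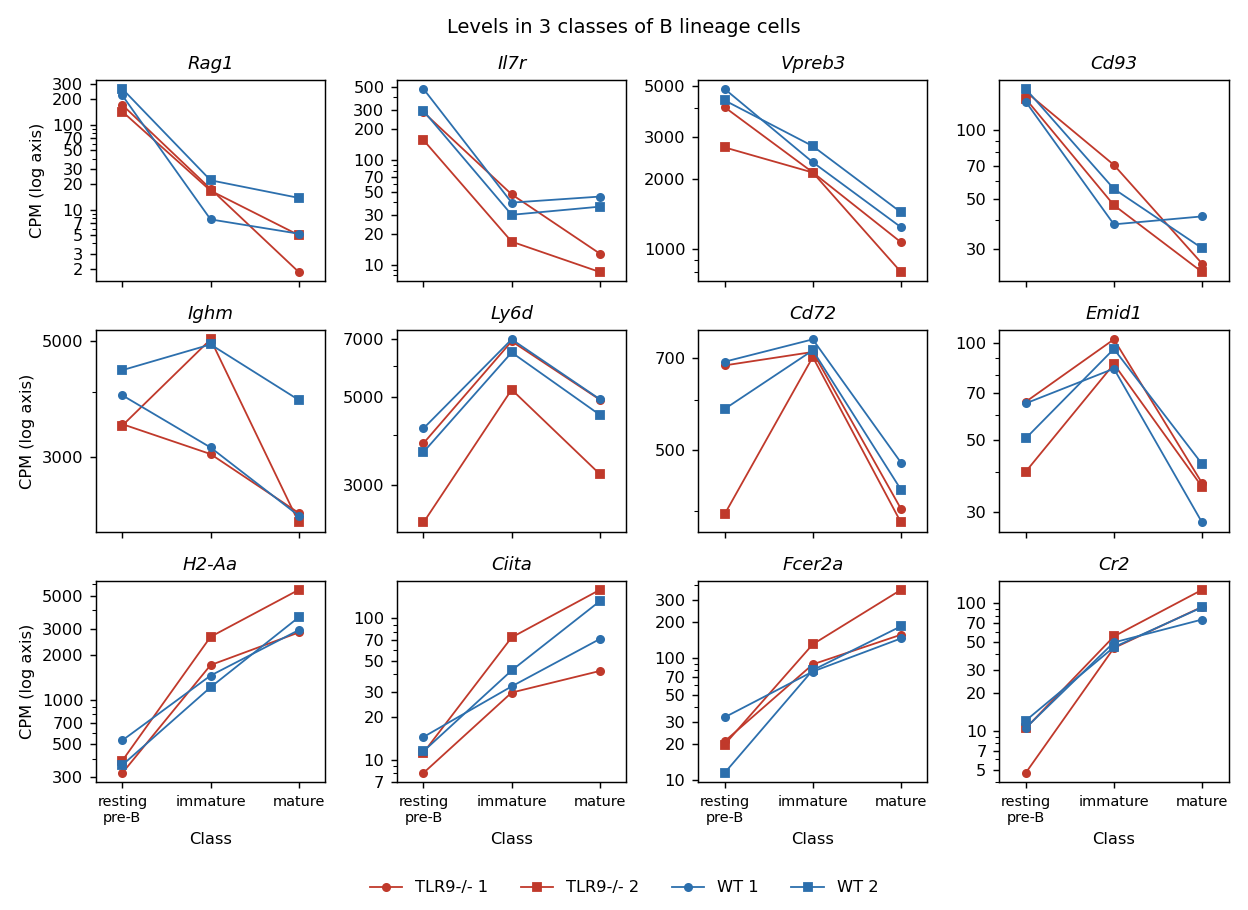
Levels of 12 genes (CPM, log axis) in small resting pre-B, immature and mature B cells, with 1 line per library. Rag1 and Il7r fall between the first and second class in every library, H2-Aa, Ciita, Fcer2a and Cr2 are higher in mature than in immature B cells in every library, and Ly6d, Cd72 and Emid1 are highest in immature B cells in every library.

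The recombination genes separated immature from pre-B cells. Rag1, a subunit of the recombinase, was at 172, 144, 223 and 266 CPM in pre-B cells and at 17.6, 16.8, 7.69 and 22.3 CPM in immature B cells. Every library of immature B cells was thus below every library of pre-B cells, and the log2 fold change was −3.63 (SE 0.21, adjusted p = 1.5e-05, edgeR). Rag2, the other subunit, had 1, 1, 2 and 8 UMIs in all immature B cells of the 4 libraries. Of 15 genes tested for recombination and receptor editing, 7 were lower and 2 were higher, with a median of −1.18 against −0.01 over all genes. The lower ones included Il7r, the receptor of the pre-B growth factor interleukin-7 (−3.17, SE 0.16), and Xrcc6, the Ku70 subunit of the end-joining machinery (−2.62, SE 0.12). The higher ones were the transcription factors Ikzf3 (0.65, SE 0.13) and Irf8 (0.87, SE 0.19). Between immature and mature B cells 1 of 12 genes of this list differed, a share near the 6.09% of all genes. It was Ikzf1 (0.44, SE 0.09), which encodes Ikaros.

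Genes of the surrogate light chain and pre-B list were lower than in pre-B cells in 7 of 9 tested, with a median of −2.10. Several of these genes also stand in other lists. Myb, a transcription factor of progenitors, changed by −2.10 (SE 0.12) and Sox4, another such factor, by −2.18 (SE 0.15). Vpreb3, which associates with newly made receptor chains, took an intermediate place. Its levels were 4043, 2722, 4839 and 4324 CPM in pre-B cells, 2128, 2125, 2351 and 2756 CPM in immature B cells and 1070, 798, 1240 and 1437 CPM in mature B cells. The order held within every library, and both steps passed the threshold (−0.73, SE 0.11, against pre-B cells and 1.06, SE 0.08, against mature B cells). Cd93, the surface marker used to tell immature from mature B cells, was lower than in pre-B cells in every library and higher than in mature B cells in all but WT 1, with 70.4, 46.7, 38.5 and 55.2 CPM in immature B cells (−1.45, SE 0.13, and 0.81, SE 0.21).

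The list of immature and transitional markers accordingly gave different counts on the 2 sides. In comparison with mature B cells 7 of 13 were higher and 1 was lower. Cd24a, the heat-stable antigen, rose by 0.74 (SE 0.09), Igkc by 0.47 (SE 0.06) and Ly6d by 0.55 (SE 0.05), and the lower gene was Gm8369 (−0.93, SE 0.13). Against pre-B cells 10 of 14 were lower, and the 1 higher gene was Ly6d (0.90, SE 0.08). The lower ones included Igkc, for which a limit is given below. The levels of Ly6d in immature B cells, 6917, 5219, 6995 and 6481 CPM, lay above both neighbours within every library. The same held for Cd72, with 717, 703, 750 and 721 CPM against 403, 384, 478 and 433 CPM in mature B cells (0.77, SE 0.08, adjusted p = 4.87e-05, edgeR). Against pre-B cells Cd72 did not pass the threshold, with a log2 fold change of 0.34, but with immunoglobulin genes left out it did (0.34, adjusted p = 0.0328, edgeR).

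Ighm was higher in immature than in mature B cells (0.58, SE 0.11, adjusted p = 0.0056, edgeR), a call that DESeq2 did not make (0.58, adjusted p = 0.079). Its levels in immature B cells were 3034, 5037, 3124 and 4925 CPM, with the libraries numbered 2 higher in both genotypes. Of the light chain constant genes, Iglc2 and Iglc3 were higher in immature than in pre-B cells (1.15, SE 0.11, and 1.17, SE 0.14), and Igkc was lower (−1.57, SE 0.14), at 3002, 2813, 3481 and 3368 CPM in immature B cells. The pre-B class held the plasma cell transcripts described below, and how much of its Igkc came with them was not tested. By single cells, 2 or more light chain variable segment UMIs were found in 66.8%, 64.9%, 61.6% and 59.5% of pre-B cells. In immature B cells the shares were 96.4%, 96.3%, 96.8% and 91.9%. The summed Igkc thus does not show less light chain RNA in most immature B cells. As given below, the constant regions did not separate kappa from lambda cells.

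Most MHC class II presentation genes rose in order over the 3 classes. All 11 genes tested were higher in immature than in pre-B cells, with a median log2 fold change of 1.93, and 10 of 11 were lower in immature than in mature B cells, with a median of −0.93. H2-Aa, the alpha chain of I-A, was at 321, 389, 533 and 363 CPM in pre-B cells, at 1712, 2654, 1455 and 1214 CPM in immature B cells and at 2840, 5503, 2947 and 3596 CPM in mature B cells. The steps were 2.11 (SE 0.21) and −1.10 (SE 0.09). Ciita, the coactivator that drives these genes, was at 29.8, 73.1, 33.0 and 42.7 CPM in immature B cells, 1.93 above pre-B cells (SE 0.25) and 1.20 below mature B cells (−1.20, SE 0.15). Cd74, the invariant chain, rose by 2.29 from pre-B cells (SE 0.13), and stood 0.50 below mature B cells (−0.50, SE 0.05). H2-DMb2, a chain of the peptide editor H2-DM, was 2.71 higher than in pre-B cells (SE 0.22). Ctss, the protease cathepsin S, was the gene of the list that did not pass against mature B cells.

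The promoters of these genes are known to share a module of boxes near the start site, of which the Y box holds the letters GATTGG. The last 150 bases before the start site are shown for 4 genes of the list, in the direction of the gene and from RefSeq sequence of GRCm38.p6, with a match on the strand of the gene in capitals. H2-Eb1 holds a further GATTGG on the other strand, left in lower case.

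H2-Aa: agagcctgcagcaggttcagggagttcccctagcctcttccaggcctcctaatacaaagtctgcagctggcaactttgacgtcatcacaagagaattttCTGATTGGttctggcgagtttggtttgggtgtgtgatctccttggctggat

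H2-Eb1: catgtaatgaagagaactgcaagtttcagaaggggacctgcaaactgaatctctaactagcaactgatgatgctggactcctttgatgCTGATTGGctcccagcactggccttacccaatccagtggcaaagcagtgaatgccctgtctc

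H2-Oa: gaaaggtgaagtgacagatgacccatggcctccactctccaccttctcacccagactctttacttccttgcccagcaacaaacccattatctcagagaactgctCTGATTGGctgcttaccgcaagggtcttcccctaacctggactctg

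H2-DMb2: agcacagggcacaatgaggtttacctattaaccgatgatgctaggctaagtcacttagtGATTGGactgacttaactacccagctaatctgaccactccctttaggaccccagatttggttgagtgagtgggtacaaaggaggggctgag

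These windows lie at chr17:34287824-34287973 on the minus strand for H2-Aa and, on the plus strand, at chr17:34305717-34305866 for H2-Eb1, chr17:34092229-34092378 for H2-Oa and chr17:34145099-34145248 for H2-DMb2. The capitals begin 51, 62, 46 and 91 bases before the start site, as given by −51, −62, −46 and −91. Both strands were searched in the same 150 bases of 32851 promoters. CTGATTGG, which contains GATTGG, was found in 3 of the 8 genes of the list that the table holds and in 3.16% of all promoters. GATTGG was found in 6 of the 8 genes and in 10.9% of all promoters. A match is a run of letters and not a measured site. Against pre-B cells H2-Oa and H2-Eb1 were higher by 1.90 (SE 0.13) and 2.18 (SE 0.20).

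Genes of the mature B-cell list were compared in the same way. Against pre-B cells 13 of 18 were higher and 0 were lower, and against mature B cells 11 were lower and 1 was higher. Fcer2a, the low-affinity IgE receptor CD23, was at 89.4, 131, 78.0 and 80.1 CPM in immature B cells and at 157, 366, 146 and 184 CPM in mature B cells (−1.14, SE 0.11, adjusted p = 4.78e-05, edgeR). Cr2, the complement receptor CD21, was at 44.7, 55.1, 49.4 and 45.4 CPM in immature B cells, 2.35 above pre-B cells (SE 0.22) and below mature B cells, at 93.9, 128, 74.7 and 93.1 CPM, in every library (adjusted p = 0.000296, edgeR). The higher gene was Tnfrsf13c, the receptor for the survival factor BAFF (0.31, SE 0.09). It was also 1.65 above pre-B cells (SE 0.12).

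Of the egress and homing genes, 9 of 16 were higher and 2 were lower than in pre-B cells. The lower genes were Cxcr4, which holds cells in the marrow (−1.18, SE 0.12), and Cd69 (−0.72, SE 0.13), which acts against the exit receptor S1pr1. S1pr1 itself was 1.25 higher (SE 0.24), and Cxcr5, which guides cells to follicles, was 2.89 higher (SE 0.25). Of these, against mature B cells, 6 of 16 were lower and 0 were higher.

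Of the B-cell receptor signalling genes 16 of 28 were higher than in pre-B cells and 1 was lower, with a median of 0.51. The inhibitory coreceptor Cd22 rose by 1.96 (SE 0.13). Against mature B cells, where fewer of all genes passed, 3 of 28 were higher and 2 were lower. Among B lineage transcription factors 10 of 27 were higher and 7 were lower than in pre-B cells, and 3 of 26 were higher and 2 were lower than in mature B cells. Spib, a factor of the Ets family, was 0.84 higher than in mature B cells (SE 0.08), and Mef2c fell by 0.59 (SE 0.09). Survival genes moved both ways against pre-B cells, with 6 of 16 higher and 4 lower. Mcl1 was 1.06 higher (SE 0.12) and Bcl2l1, which encodes Bcl-xL, was lower (−2.05, SE 0.20). Of the early response genes 4 of 14 were higher and 4 were lower than in pre-B cells. Against mature B cells 1 of 15 was higher, a share near the 6.09% of all genes that passed there. The higher ones on the pre-B side included Egr1 (1.85, SE 0.33) and Cd83 (2.49, SE 0.25).

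Toll-like receptor pathway genes were higher than in pre-B cells in 6 of 15 tested and lower in 2. Tlr1, a receptor for lipopeptides, was at 21.7, 33.6, 26.4 and 19.6 CPM against 2.02, 3.51, 5.01 and 5.43 CPM (2.60, SE 0.31), Cd180 was 1.96 higher (SE 0.17) and Irf5 was 1.39 higher (SE 0.12). On the mature side 1 of 16 genes differed, a share near the 6.09% of all genes. It was the chaperone Hsp90b1, which folds these receptors (0.56, SE 0.10). Tlr9 was too low to be tested.

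**Figure D3:**
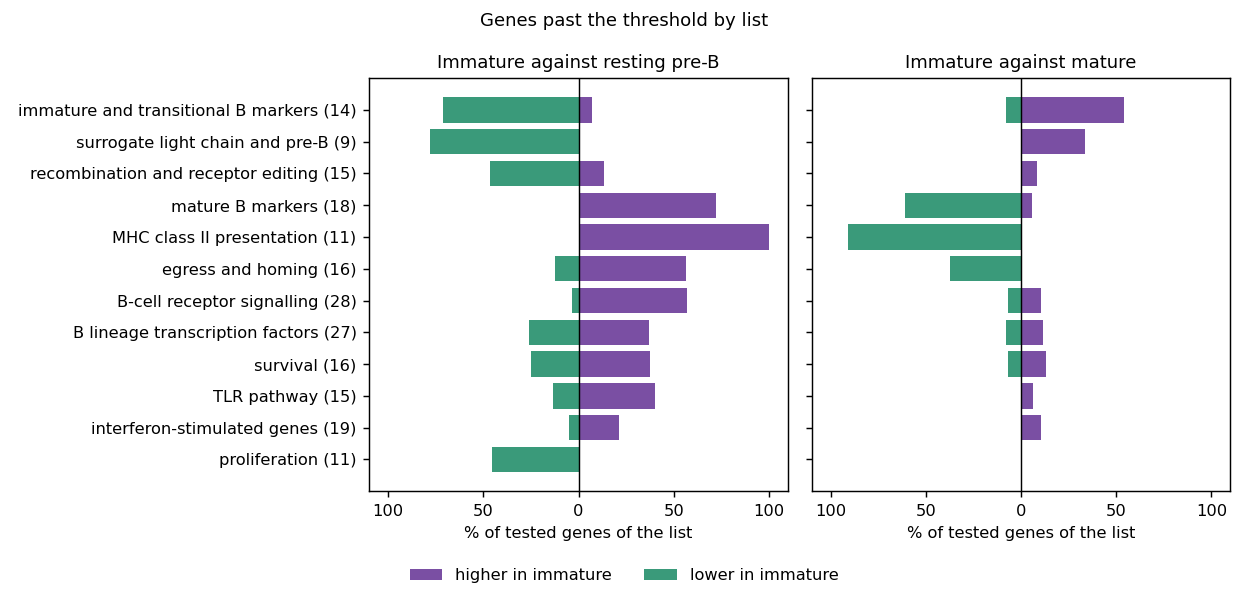
Genes past the threshold in 12 lists, as % of the tested genes of a list (their number in the left comparison in brackets), for immature against resting pre-B (left) and against mature B cells (right). Bars to the right of 0 count genes higher and bars to the left genes lower in immature B cells. MHC class II and mature B genes are mostly higher than in pre-B cells and mostly lower than in mature B cells.

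The single genes with the highest and lowest fold changes gave a further view. Against pre-B cells the highest named were Il4i1 (2.87, SE 0.14), H2-DMb2, Bank1 (2.66, SE 0.19), Fgd2, Cfp, Rhof, Fcmr, Cd74 and Ltb. Bank1 is an adaptor of receptor signalling, Fcmr binds the constant part of IgM, Cfp encodes the complement factor properdin and Ltb encodes lymphotoxin beta. Fcmr was at 504, 511, 545 and 469 CPM in immature B cells and at 80.0, 92.5, 124 and 122 CPM in pre-B cells. On the lower side, Rag1 and Il7r are described above and Uchl1 encodes a ubiquitin hydrolase. Ighg2b, Igha and Jchain are plasma cell transcripts, and Mcpt8, Prss34 and Prg3 are granule genes of basophils and eosinophils. Jchain in pre-B cells came from 81 cells with at least 50 UMIs. Lima1, an actin-binding protein, had 193 and 165 UMIs in TLR9-/- pre-B cells against 15 and 10 in WT ones, and between 1 and 9 in immature B cells. The genotype difference in pre-B cells was not tested. The variable segment Ighv1-26 had 3029, 1724, 12 and 1347 UMIs in pre-B cells, low in WT 1. Its log2 fold change of −5.98 turned to 0.31 without cells of 50 or more Jchain UMIs (adjusted p = 0.538, edgeR). Igha, at 945, 24, 1902 and 15.1 CPM in immature B cells, turned to a higher level than in pre-B cells when cells with other lineage UMIs were left out (1.27, adjusted p = 0.00924, edgeR). Its lower level no longer passed without cells of 50 or more Jchain UMIs (−1.77, adjusted p = 0.211, edgeR) or without WT 2 (−4.44, adjusted p = 0.0585, edgeR).

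Against mature B cells the highest named were Jchain, Igha, Slamf9, Eaf2, Coq7, Xbp1, Fam129c, Emid1 and Atp1b1, with Igkv12-89 among the 3 most extreme. Jchain and Igha came from few cells, and without the 7 cells with 50 or more Jchain UMIs Igha no longer passed (0.98, adjusted p = 0.0764, edgeR). Emid1, an extracellular protein, was at 103, 86.3, 83.5 and 96.1 CPM against 36.8, 35.9, 27.8 and 42.2 CPM in mature B cells (1.34, SE 0.13). Xbp1, a factor of the secretory pathway, was at 126, 143, 136 and 73.9 CPM against 31.3, 53.1, 45.2 and 44.0 CPM (1.38, SE 0.15). Plasma cell markers were higher in 4 of 6 tested, and so were 3 of 10 neutrophil markers, S100a8, S100a9 and Retnlg (0.60, SE 0.07, for S100a8). The lowest named were Icosl, Gimap8, Pgap1, Ciita, March1, Fcer2a, Pxdc1, H2-Aa and Sesn1, with Igkv8-21 among the 3 most extreme. With Ms4a1 at least 2, Pgap1 (−1.14, adjusted p = 0.0669, edgeR) and Igkv12-89 (1.51, adjusted p = 0.0534, edgeR) did not pass. Igkv8-21 did not pass in cells with at least 1000 UMIs (−1.56, adjusted p = 0.153, edgeR) or without WT 2 (−1.16, adjusted p = 0.0546, edgeR). Icosl, the ligand of the T-cell costimulator ICOS, was at 19.0, 39.5, 11.0 and 16 CPM against 57.1, 105, 43.4 and 54.3 CPM (−1.60, SE 0.17). March1, a ubiquitin ligase that removes MHC class II from the surface, was at 32.5, 16.8, 30.8 and 24 CPM against 49.7, 75.3, 45.2 and 55.2 CPM (−1.17, SE 0.22), and did not pass without WT 2 (−1.16, adjusted p = 0.0558, edgeR).

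Light chain use was read from the variable segments, because the constant regions did not separate the cells. Of the immature B cells with at least 2 constant region UMIs, 386 of 479, 311 of 374, 509 of 660 and 553 of 655 held both kappa and lambda UMIs. By the constant regions 70.1% and 70.3% of TLR9-/- cells and 61.7% and 46.1% of WT cells held more lambda than kappa UMIs (70.2% ± 0.124 against 53.9% ± 11.0, SD, n = 2 libraries each, two-sided exact permutation p = 0.33, the smallest it can give). By the same measure mature B cells gave 75.6% and 81.6% against 71.0% and 54.1%. The difference was 16.04 percentage points beside 16.35 in immature B cells, where it was 8.57 to 24.1 with 1 library left out. Pre-B cells gave 38.6% and 40.25% against 33.7% and 32.5%. By variable segments, 89.0% to 92.9% of the immature B cells with at least 2 such UMIs had at least 90% of them on one chain. This measure was chosen after the data were seen. By it 15.8% (75 of 476 cells, 12.6% to 19.3%) and 15.3% (56 of 366, 11.8% to 19.4%) of the TLR9-/- cells were lambda cells. In the WT libraries 10.6% (71 of 669, 8.38% to 13.2%) and 12.0% (74 of 616, 9.55% to 14.8%) were. The genotypes did not overlap, with a difference of 4.22 percentage points, but the two-sided exact permutation p was again 0.33. In pre-B cells the shares were 11.2% and 14.6% against 10.8% and 15.3%, so that libraries of 1 genotype differed by about as much as the genotypes did in immature B cells. In mature B cells the shares were 9.48% and 9.41% against 9.90% and 9.18%.

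**Figure D4:**
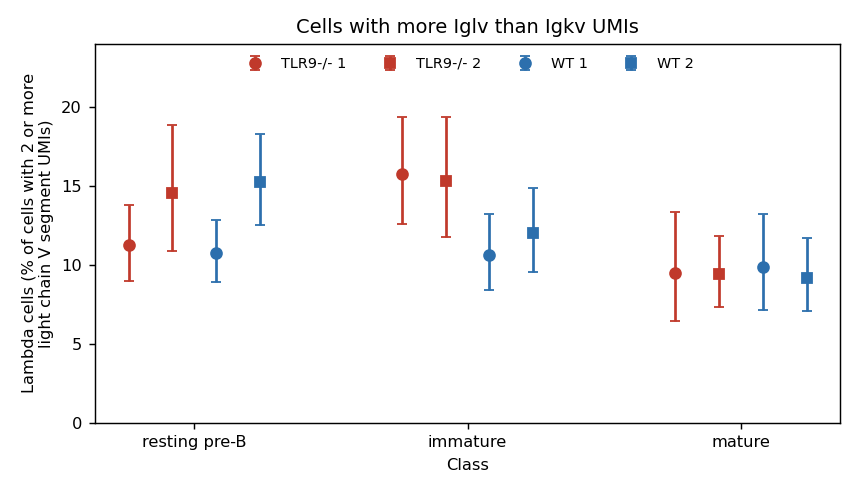
Share of cells with more Iglv than Igkv UMIs (%, among cells with at least 2 light chain variable segment UMIs) by class and library, with 95% exact binomial intervals. In immature B cells the TLR9-/- libraries lie at 15.8% and 15.3% and the WT libraries at 10.6% and 12.0%, in pre-B cells the 2 genotypes overlap between 10.8% and 15.3%, and in mature B cells all 4 lie between 9.18% and 9.90%.

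Between genotypes, Tlr9 itself (chr9:106222598-106226883 of GRCm38, plus strand) gave 6 and 4 UMIs in TLR9-/- immature B cells and 7 and 18 in WT ones. The ratio of WT to TLR9-/- was 1.90 with an exact counting interval of 0.882 to 4.44, so that a difference was not detectable in this class at this depth. In mature B cells Tlr9 had 1 and 3 UMIs in TLR9-/- and 5 and 17 in WT libraries (ratio 6.08, 2.07 to 24.3), and in pre-B cells 3 and 1 against 9 and 7 (3.44, 1.11 to 14.1). These intervals lie above 1 and cover counting error only. Which stretch of the gene is disrupted is not given in the sources used here, and a 5′ tag outside it would not check the genotype.

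Genotypes were then compared gene by gene in immature B cells. Of 7201 genes tested, 5 were higher (0.0694%) and 5 were lower (0.0694%) in TLR9-/- cells, while 401 (5.57%) had an unadjusted p under 0.05. The genotypes did not overlap in 2444 genes (33.9%). For 2 libraries per genotype a fraction of 0.33 of all orderings separates them, so this share is near that from order alone. The 10 calls became 101 without TLR9-/- 1, 54 without TLR9-/- 2, 25 without WT 1 and 63 without WT 2, with 10, 10, 9 and 10 of the original genes among them. They became 125 with no filter on low counts and 24 without doublets, both with all 10 among them. BC018473, annotated as an antisense transcript on chromosome 11, had 46 and 70 UMIs in TLR9-/- cells and 0 in both WT libraries, at least 50.8-fold higher against a floor of 3 UMIs over the genotype. Gm35082, a long noncoding RNA on chromosome 7, had 23 and 60 UMIs against 0 and 0, at least 36.4-fold higher. Mid1, a microtubule-associated ubiquitin ligase encoded on the X chromosome, had 62 and 73 against 7 and 18 UMIs (log2 fold change 2.83, SE 0.33, adjusted p = 0.00505, edgeR). Ocel1, on chromosome 8, had 67 and 65 against 28 and 23 UMIs (1.75, SE 0.28, adjusted p = 0.0334, edgeR). The remaining higher gene, Gm4316, a noncoding RNA on chromosome 8 that falls outside the naming rule, had 39 and 59 against 14 and 9 UMIs (2.45, SE 0.36). Ocel1 did not pass by DESeq2 (1.76, adjusted p = 0.0824), and neither Ocel1 (1.70, adjusted p = 0.0657, edgeR) nor Gm4316 (2.65, adjusted p = 0.0625, edgeR) passed in cells with at least 1000 UMIs.

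Of the 5 lower genes, 4 belong to the tripartite motif (Trim) family, whose members include antiviral restriction factors. They lie in one cluster on chromosome 7, between 104244457 and 104507849. Trim30d had 0 and 0 UMIs in TLR9-/- cells and 38 and 28 in WT cells, at least 16.7-fold lower. Trim12a had 0 and 1 against 56 and 74 UMIs, and Trim5 had 0 and 1 against 27 and 45. The ratio of WT to TLR9-/- was 98.9 for Trim12a and 54.8 for Trim5, with exact counting intervals whose lower ends were 17.4 and 9.52. Trim34a had 2 and 5 against 77 and 42 UMIs (−3.69, SE 0.56, adjusted p = 0.021, edgeR). These genes have close copies in the cluster, and whether reads shared among copies affected their counts was not tested. Col5a3, a collagen chain encoded on chromosome 9 at 85.45 megabases from Tlr9, had 0 and 0 against 23 and 56 UMIs, at least 20-fold lower. Of these calls, Trim5 was not made by DESeq2 (adjusted p = 0.105), Trim30d not without WT 1 (adjusted p = 0.0681, edgeR), and Trim34a and Col5a3 not in cells with at least 1000 UMIs (adjusted p = 0.0647 and 0.111, edgeR), each still lower in TLR9-/- cells.

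The genes called in immature B cells also had unequal UMIs, in the same direction, in both neighbouring classes, as BC018473, Col5a3 and Trim12a show. BC018473 had 66 and 144 UMIs in pre-B cells and 46 and 173 in mature B cells of TLR9-/- mice, and 0 in both classes of WT mice. Col5a3 had 0 in TLR9-/- cells of both classes, 96 and 165 UMIs in WT pre-B cells and 5 and 16 in WT mature B cells. Trim12a had 0 in TLR9-/- cells of both classes, and 118 and 124 UMIs in WT pre-B cells and 41 and 105 in WT mature B cells. A test of whether the genotype difference was unlike in immature and mature B cells called 0 of 7777 genes by edgeR (0%) and 0 by DESeq2, with 306 (3.93%) at an unadjusted p under 0.05. The 0 calls became 59 without TLR9-/- 1, 53 without TLR9-/- 2, 29 without WT 1, 16 without WT 2 and 54 with no filter on low counts, so that the count does not show that the classes responded alike.

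**Figure D5:**
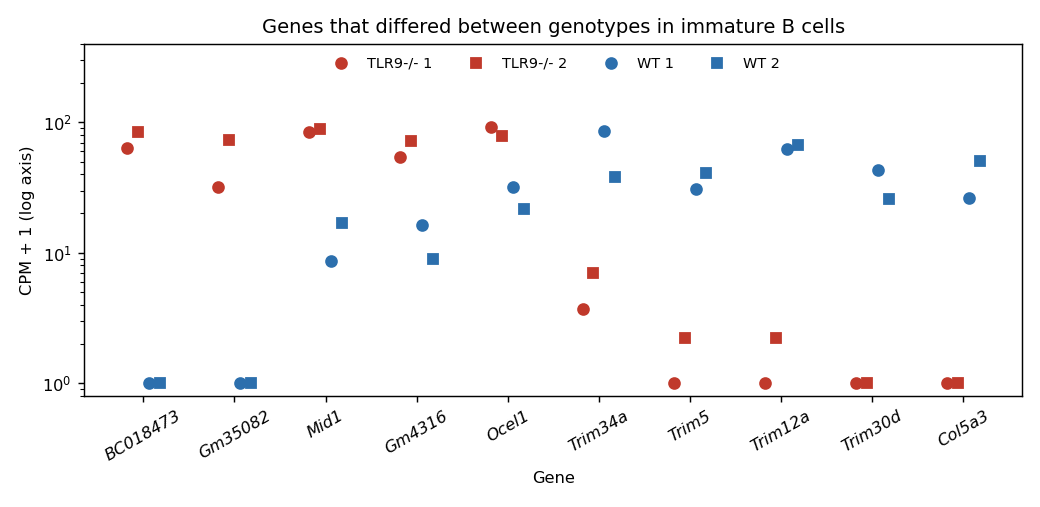
Levels (CPM + 1, log axis) in immature B cells of each library for the 10 genes that differed between genotypes. The TLR9-/- libraries lie above the WT libraries for BC018473, Gm35082, Mid1, Gm4316 and Ocel1, and below them for the 4 Trim genes and Col5a3, and a point at 1 is a library with 0 UMIs.

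No gene of the lists passed the threshold between genotypes, at the background of 0.139% in either direction. All 11 MHC class II genes had a fold change above 0, with a median of 0.45 against −0.01 over all genes, and 3 had an unadjusted p under 0.05. H2-Aa was highest in the TLR9-/- library numbered 2 and lowest in the WT library numbered 2 (0.74, SE 0.26, unadjusted p = 0.0166, adjusted p = 0.733, edgeR). The mature B-cell list had 15 of 18 above 0, with a median of 0.31, and Fcer2a was at 0.51 (SE 0.25). Mature B cells made up 8.70% and 26.2% of the B lineage cells in TLR9-/- libraries and 7.81% and 14.8% in WT ones. Such cells without a detected UMI of Ighd would be counted as immature. Whether this affected the fold changes of the MHC class II and mature B-cell lists was not tested. Of 27 B lineage transcription factors 22 were below 0, with a median of −0.21, and of 19 interferon-stimulated genes 14 were below 0, with a median of −0.06. The interferon-stimulated list, led by Ifi27l2a, summed to 3214 and 3316 CPM in TLR9-/- cells and to 6007 and 2847 CPM in WT cells, so that WT 1 stood apart and WT 2 lay below both TLR9-/- libraries. Within the list Isg15 had 23 and 25 UMIs in TLR9-/- cells and 132 and 57 in WT cells (−1.63, SE 0.43, adjusted p = 0.373, edgeR). The B-cell receptor signalling list had 16 of 28 above 0, with a median of 0.05, and the Toll-like receptor list 6 of 16, with a median of −0.03. The markers Ly6d (−0.13, SE 0.20), Ighm (0.03, SE 0.28) and Cd72 (−0.03, SE 0.24) did not pass either. Beside these values, all 10 neutrophil markers were above 0, with a median of 1.07, and all 6 erythroid markers tested were below 0, with a median of −2.24.

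The list of cytokines and receptors that act on bone was led by Ltb, which had 691 and 788 UMIs in TLR9-/- and 756 and 599 in WT immature B cells. It was higher than in pre-B cells (2.22, SE 0.14) and lower than in mature B cells (−0.53, SE 0.07). Tgfb1, a growth factor stored in bone matrix, had 126 and 107 against 159 and 176 UMIs, and Cd40, the receptor for T-cell help, had 85 and 86 against 127 and 134. The other members of the list were scarce. Tnfsf11, the osteoclast factor RANKL, had 1 UMI in 3499999, and Tnfrsf11b, its decoy receptor osteoprotegerin, had 0, which by a floor of 3 UMIs allows up to 0.857 CPM. Tnf had 3 and 4 UMIs in TLR9-/- and 8 and 2 in WT cells, Il6 and Il10 had 0, and Lta, Il1b and Csf1 had 33, 29 and 6 over the 4 libraries. Of 11 genes of this list Ltb, Tgfb1 and Cd40 were abundant enough to be tested between genotypes, and 0 passed, with Ltb at 0.49 (SE 0.27, adjusted p = 0.923, edgeR).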

How the data were processed

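Per the labels and the file headers, the authors aligned reads to mm10 with Cell Ranger (3.0.1 in the matrix header) and STAR, and deposited UMI counts per gene and called cell, with 1 matrix per library and no pooling. Of 40545 deposited barcodes, 39167 with 200 to 10000 detected genes and at most 10% mitochondrial UMIs were kept, the mitochondrial limit of the methods being read as a fraction. Doublets were kept in the main values and left out as an alternative. Scrublet's automatic threshold failed in the WT library numbered 2, where the top scores at the expected rate were taken. UMI counts summed per library and class were tested with edgeR 4.0.16 (TMM, filterByExpr, quasi-likelihood test, Benjamini-Hochberg over all genes tested), with the library as a block between classes. Shares were tested on cell counts with the same quasi-likelihood test, without TMM or filterByExpr. For them the library size was the number of all or of B lineage cells, and Benjamini-Hochberg ran over the 7 or 6 classes. The SE is the absolute log2 fold change divided by the square root of F. DESeq2 1.42.0 was an alternative. Scripts were tested on simulated data. Genes were named by rule: the 10 highest and 10 lowest fold changes past an adjusted p of 0.05 with the same sign in both pairs or all 4 libraries, between classes also at 50 CPM or more in the higher class. Immunoglobulin segments and unnamed loci were named only among the 3 most extreme. All genes of the lists except Tasl were in the files. The cells and gene lists were chosen with earlier results of these data known. Gene positions come from GENCODE M21 on GRCm38, where 58 of 58 identifiers matched. Cells of 1 mouse are not replicates, and n is the library. A few genes that met the naming rule are not reported here.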

Additional observations from a re-analysis of the deposited data

How the results depend on the processing

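The share of all cells kept its direction under every alternative run, from −0.77 to −0.56 with 1 library left out, and its adjusted p ranged from 0.0833 to 0.585 (edgeR). The share of B lineage cells was −0.0227 without marked doublets and −0.0751 to 0.0901 with 1 library left out, −0.0233 without TLR9-/- 2. For genes by genotype, the count of 10 became 40 (25 higher, 15 lower) with the replicate number as a block, 125 with no filter on low counts, 21 with at least 20 UMIs in every library of a group, 24 without doublets, 18 without cells with other lineage UMIs, 17 without those or basophil UMIs, 23 without immunoglobulin genes, 24 without cells of 50 or more Jchain UMIs, and 25 to 101 with 1 library left out. The numbers were not taken to pair the libraries: same-numbered libraries deviated together with a correlation of 0.1644 across 7204 genes, over 2 pairs. Ighm reversed to −0.3058 with Ms4a1 at least 2, −0.3051 without other lineage UMIs, −0.3054 without those or basophil UMIs, −0.3341 without Jchain cells, and −0.3945 to 0.3973 with 1 library left out (−0.2539 without WT 1). Cd72 reversed to 0.0035 with at least 20 UMIs, 0.0106 without doublets, 0.0151 without other lineage UMIs, 0.0173 without those or basophil UMIs and −0.0532 to 0.0102 with 1 library left out, and Ly6d to −0.3311 to 0.0522. Trim30d no longer passed without WT 1 (adjusted p = 0.0681, edgeR). By DESeq2 Ocel1 (1.76) and Trim5 (−5.75) did not pass (adjusted p = 0.0824 and 0.105), nor in cells with at least 1000 UMIs did Ocel1 (1.70), Col5a3 (−7.24), Trim34a (−3.57) and Gm4316 (2.65) by edgeR. Against mature B cells the count of 428 became 129 by DESeq2, all among the 428, 194 with Ms4a1 at least 2, 255 in cells with at least 1000 UMIs and 214 to 338 with 1 library left out, lowest without WT 2, where March1 no longer passed (−1.16, adjusted p = 0.0558, edgeR). Pgap1 and Igkv12-89 did not pass with Ms4a1 at least 2, nor Igkv8-21 in cells with at least 1000 UMIs or without WT 2. Against pre-B cells the count of 1260 became 796 by DESeq2 and 772 to 1306 with 1 library left out. There Ighm turned to −0.0783 with Ms4a1 at least 2, −0.036 in cells with at least 1000 UMIs and −0.1046 to 0.1758 with 1 library left out, whereas it passed as higher without other lineage UMIs (0.2615, adjusted p = 0.0076, edgeR), without those or basophil UMIs (0.2665, 0.00799) and without Jchain cells (0.3553, 0.00817). Igha turned to 1.2679 without other lineage UMIs and 1.2738 without those or basophil UMIs, and Ighv1-26 to 0.3107 without Jchain cells. The test of unlike genotype differences called 54 genes with no filter, 2 with Ms4a1 at least 2, 6 without immunoglobulin genes, 1 each without other lineage UMIs, without those or basophil UMIs and at 1000 UMIs, and 16 to 59 with 1 library left out. The lambda difference of 16.3 percentage points by constant regions was 8.57 to 24.1 with 1 library left out and 4.22 by variable segments. The alternatives on Jchain, basophil UMIs and variable segments were chosen after seeing the data. The cause of these changes was not tested. Tlr9 was below the filter on low counts and was compared between genotypes by counting intervals alone.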
